A study of Homo sapiens with 12 samples.

Results

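The regions of H3K27ac and of H3K4me1 were compared with each other within the control cells of a study of VPS72. VPS72 (YL1) is a chaperone of the histone variant H2A.Z within the remodelling complexes SRCAP and TIP60. The members were all regions of the control H3K27ac list (64460) and of the control H3K4me1 list (124449) on chromosomes 1 to 22 and X, taken by antibody label and chromosome and not by any measured value. These are 188909 of the 1553127 regions in the 12 lists of the series. The cells were Huh7, a hepatocellular carcinoma line, in which a FLAG tag had been knocked in by Cas9 at the end of the coding sequence of VPS72 under blasticidin selection, and all groups used here carry that tag. The control cells had been infected for 24 h with lenti-HA virus, and the overexpression cells with lenti-VPS72-FLAG virus. Each condition had 1 chromatin immunoprecipitation library (ChIP-seq) for each of H3K27ac, H3K4me1, H2A.Z, its acetylated form (H2A.Zac) and FLAG, and 1 input. The VPS72 of the FLAG library was therefore the endogenous protein in the control. FLAG ChIP from untagged cells was not analysed here, so a region of the FLAG list is not by itself evidence of VPS72 binding. The genotype labels of the overexpression libraries run from VPS72 through other VPS numbers, and the titles were followed. Peak names in the control H3K4me1 list spell H3k3me1, and the title and antibody label were followed. The labelled cell type could not be checked against marker genes, since peaks were not assigned to genes.

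Monomethylation of lysine 4 of histone H3 (H3K4me1) marks enhancers, both active and inactive, and the shoulders of active promoters. Acetylation of lysine 27 of histone H3 (H3K27ac), laid down by p300 and CBP, marks enhancers and promoters in use. At active promoters the nucleosomes next to the start site usually carry trimethylation in place of monomethylation at lysine 4, and H3K4me1 lies further out. H3K4me1 with H3K27ac is the common signature of an active enhancer, and H3K4me1 without it that of a primed one. H2A.Z is a histone variant placed at promoters and enhancers by SRCAP and TIP60, and its acetylated form is found where transcription is active. Genes and start sites were not located here, so no region below is named a promoter or an enhancer.

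A region was counted as shared where it overlapped a region of the other mark by at least 1 bp, as flanking where the nearest region of the other mark lay 1 to 2000 bp away, and as separate otherwise. There was 1 library per side, so differences are described and not tested. Percentages are followed by Wilson 95% intervals where given, which cover counting error only. The depth recovered from the lists was 21.3 M (mega) reads for H3K27ac and 22.6 M for H3K4me1, at an assumed genome size of 2.7 Gb. The lists differed in strength more than in depth. A q of 0.05 or less was reached by 42.5% of the H3K27ac regions (27379) but by 16.2% of the H3K4me1 regions (20108). The highest deposited fold over local background was 42.4 for H3K27ac and 11.7 for H3K4me1, and the median reads at a summit with such a q were 19 and 13. A place without an H3K4me1 region may thus hold H3K4me1 below the limit of its list, and separate means only that no deposited region lay within reach. Results below marked q-limited use regions with a q of 0.05 or less of the mark counted, against the whole list of the other mark.

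Of the H3K27ac regions, 20709 were shared, 15666 flanking and 28085 separate. The shared ones made up 32.1% (31.8 to 32.5%), where the H3K4me1 list covered 1.79% of the base pairs of these chromosomes. The flanking ones made up 24.3%, and the space within 2000 bp of an H3K4me1 region, the regions left out, 11.1% of the base pairs. Of the H3K4me1 regions, 23067 (18.5%, 18.3 to 18.8%) were shared, 27276 (21.9%) flanking and 74106 (59.5%) separate, where H3K27ac covered 1.49% of the base pairs and its flanks 6.63%. The genome shares are given as a reference only, since a wide region meets another more easily than a single base does. Joined where they overlapped, the lists gave 164252 places, of which 43751 held H3K27ac alone, 101382 H3K4me1 alone and 19119 (11.6%) both. The overlap itself spanned 9.04 Mb, which was 20.0% of the base pairs under H3K27ac and 16.7% of those under H3K4me1.

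The q-limited lists gave a different balance. H3K27ac was then shared in 42.4% (41.8 to 43.0%), flanking in 29.4% and separate in 28.2%. H3K4me1 was shared in 42.6% (41.9 to 43.3%), flanking in 21.2% and separate in 36.2%. With the limit on both lists, the H3K27ac shares became 20.2% shared, 14.0% flanking and 65.8% separate. Most strong H3K27ac regions therefore met H3K4me1 or had it nearby in the whole list, and most did not once weak H3K4me1 regions were left out. Over all deposited regions, the separate ones were the weakest of each list. A q of 0.05 or less was reached by 56.0% of the shared, 51.4% of the flanking and 27.5% of the separate H3K27ac regions, and by 37.1%, 15.6% and 9.82% of the H3K4me1 regions in the same order.

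Among regions that did not overlap the other mark, density was highest within 500 bp of it and fell beyond that. Overlapping regions, which were 32.1% of the H3K27ac and 18.5% of the H3K4me1 regions, are not in these numbers. H3K27ac regions numbered 70.1 per Mb of the space lying 1 to 250 bp from an H3K4me1 region, 71.1 at 251 to 500 bp, 46.3 at 501 to 1000 bp and 25.3 at 1501 to 2000 bp. They numbered 22.5 per Mb at 2001 to 2500 bp and 3.68 beyond 50000 bp, so density did not drop sharply at the 2000 bp limit. For H3K4me1 around H3K27ac the numbers were 183, 212, 146 and 82.1 per Mb over the same 4 intervals within the limit, 73.04 at 2001 to 2500 bp and 8.30 beyond 50000 bp. Separate H3K27ac regions lay a median of 11459 bp from the nearest H3K4me1 region, and separate H3K4me1 regions 12850 bp from the nearest H3K27ac region. Just outside the limit, at 2001 to 2500 bp, lay 1449 H3K27ac and 3246 H3K4me1 regions, and just inside it, at 1501 to 2000 bp, 1760 and 3791.

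Shared regions were wider than separate ones in both lists. The median H3K27ac width was 564 bp (quartiles 334 and 1189) when shared, 439 bp when flanking and 314 bp when separate. The median H3K4me1 width was 523 bp (336 and 833), 342 bp and 308 bp in the same order. The shortest regions, 237 bp for H3K27ac and 214 bp for H3K4me1, are the floor of each list, where the width curves rise upright. In the q-limited H3K27ac list the medians lay closer together, at 1039, 903 and 864 bp. A wide region has more base pairs on which to meet another, and the part of this in the width difference was not tested. Most shared H3K27ac regions (84.3%) overlapped 1 H3K4me1 region, 13.1% overlapped 2, and 2.67% overlapped 3 or more and at most 6. Their median widths were 479, 1636 and 3127 bp. The widest H3K27ac region, 12023 bp long, was a shared one.

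**Figure D1:**
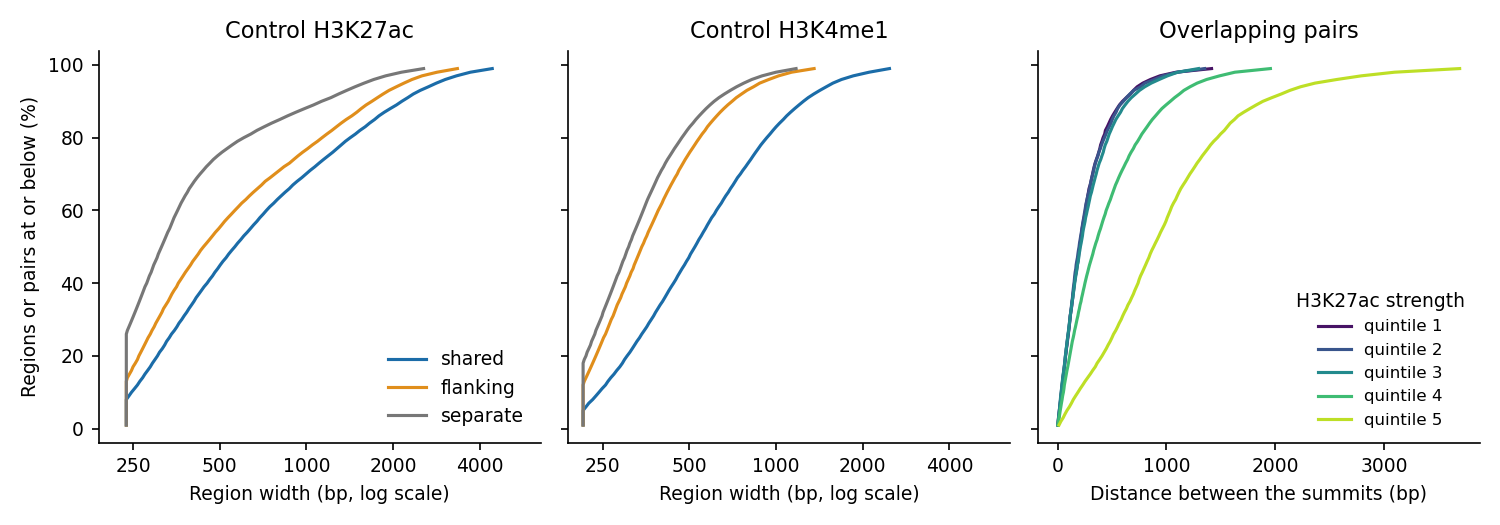
Cumulative percentage of regions by width (bp, log scale) for the control H3K27ac and H3K4me1 lists, 1 line per class, and of overlapping pairs by the distance between their summits (bp), 1 line per quintile of H3K27ac strength (5 strongest); percentiles 1 to 99 are drawn. Shared regions lie to the right of separate ones in both lists, with medians of 564 against 314 bp and 523 against 308 bp, and pairs of the strongest H3K27ac quintile lie apart from the rest, with a median summit distance of 883 bp.

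Overlapping regions of the marks did not usually have their summits at the same place. The 24657 overlapping pairs had a median distance between summits of 353 bp (95% interval 346 to 361), and 33.2% lay within 200 bp, 61.2% within 500 bp and 83.3% within 1000 bp. The H3K4me1 region lay wholly inside the H3K27ac region in 21.3% of pairs, the reverse held in 15.8%, and the regions overlapped in part in 62.9%. The H3K4me1 summit fell within the H3K27ac region in 60.9% of pairs, and the H3K27ac summit within the H3K4me1 region in 46.7%.

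The distance grew with the strength of the H3K27ac region. The deposited H3K27ac regions were split into quintiles by their −log10 q. In the weakest quintile the median summit distance was 204 bp (196 to 212) and in the strongest 883 bp (863 to 901), while the quintiles between gave 198, 210 and 342 bp. The H3K27ac summit was covered by the overlapping H3K4me1 region in 60.4% of pairs in the weakest quintile and in 18.7% in the strongest. The strongest regions were also wider, with a median width of 1512 bp against 285 bp over all regions of each quintile, and a wider region leaves more room between summits. Across the 24657 pairs the −log10 q of the marks had a Spearman rho of 0.11, and the widths one of 0.09. These are descriptions across pairs of 2 libraries, in which pairs can share a region.

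Across quintiles of their own strength, H3K27ac and H3K4me1 differed in how overlap changed. The quintiles of the marks span unlike ranges, so they do not compare the marks at like strength. The strongest q-limited quintile began at a −log10 q of 22.6 for H3K27ac and of 2.72 for H3K4me1. Among q-limited H3K27ac regions in quintiles of −log10 q, the shared percentage went 47.0%, 49.6%, 46.1%, 37.6% and 31.7% (30.5 to 33.0%) from weakest to strongest. Flanking regions went from 26.0% in the weakest quintile to 37.9% (36.7 to 39.2%) in the strongest, where they were the most frequent class. Separate regions made up 23.3% of quintile 2 and 30.3% of the strongest quintile. Among q-limited H3K4me1 regions the shared percentage rose at every step, from 28.0% through 33.7%, 37.9% and 47.3% to 66.1% (64.6 to 67.6%), and the separate percentage fell from 47.7% to 19.5%. At the very top of the H3K27ac list the shared percentage was higher than in the strongest quintile as a whole. Of the strongest 1000 H3K27ac regions, 400 were shared, 380 flanking and 220 separate, and of the strongest 1000 H3K4me1 regions 791 were shared, 91 flanking and 118 separate. Of the strongest 100, 48 H3K27ac regions were shared and 43 flanking, and 88 H3K4me1 regions were shared. Of these 100, 25 H3K27ac and 35 H3K4me1 regions lay on chromosomes 11 and 14, which hold segments of high local background, and 12 and 30 of those were shared.

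**Figure D2:**
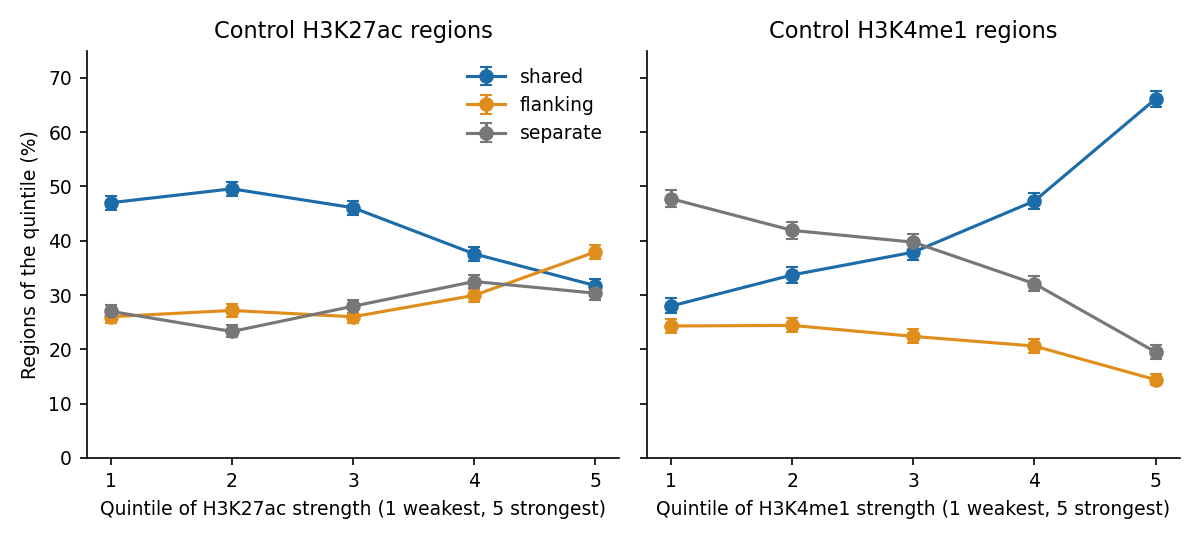
Percentage of q-limited control regions that were shared, flanking or separate (y axis) in each quintile of −log10 q of the mark counted (x axis, 1 weakest and 5 strongest); bars are Wilson 95% intervals for counting error. Shared H3K27ac regions fall from 47.0% to 31.7% while flanking ones rise to 37.9%, and shared H3K4me1 regions rise from 28.0% to 66.1%.

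Strength and width ordered the H3K27ac regions differently. In quintiles of width, the shared percentage of q-limited H3K27ac regions was 35.7%, 40.2%, 40.3%, 40.9% and 54.9% from narrowest to widest. It was therefore highest in the widest regions and lowest in the strongest, although the strongest quintile had the largest median width of the strength quintiles (1882 bp). In all 64460 deposited regions the shared percentage rose over the first 4 quintiles of strength, from 20.1% to 48.4%, and was 36.0% in the strongest.

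Position within the region separated the strong from the weak H3K27ac sites. For each summit of a q-limited H3K27ac region, the presence of an H3K4me1 region was read at every 100 bp out to 5000 bp on each side. In the weakest quintile 30.04% (28.8 to 31.3%) of the summits themselves were covered by H3K4me1, against 21.3% of positions 1000 bp away. The share at the summit fell to 28.7%, 21.9%, 12.6% and 4.89% (4.35 to 5.50%) over the stronger quintiles. At 1000 bp it stayed at 24.3%, 23.9% and 21.2% before it came to 15.4% in the strongest quintile. The profile of the strongest quintile had its low around the summit, with 4.29% at 300 bp, 17.0% at 1500 bp, 13.8% at 2000 bp and 7.74% at 5000 bp. The summits of the strongest regions were thus covered less often than positions 5000 bp away, which were covered in 6.58 to 7.92% in all 5 quintiles.

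**Figure D3:**
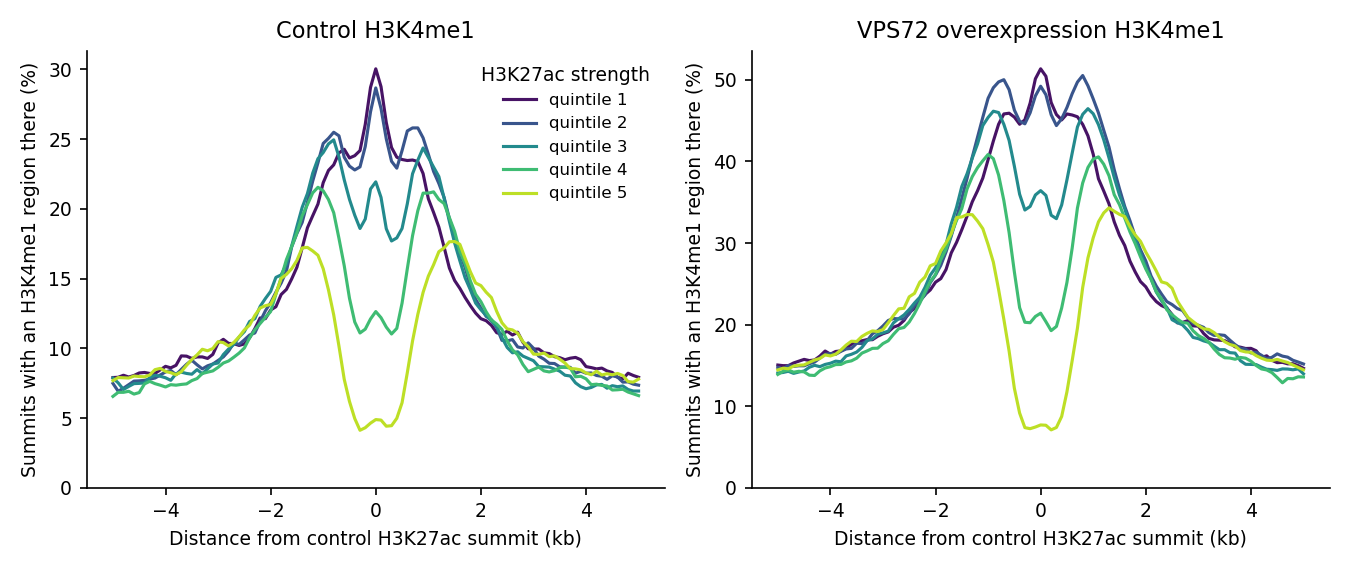
Percentage of q-limited control H3K27ac summits with an H3K4me1 region at each distance from the summit (x axis, kb, in steps of 100 bp), from the control H3K4me1 list and from that of VPS72 overexpression; each line is a quintile of H3K27ac strength (5 strongest), and the y axes differ. The strongest quintile has its low around the summit (4.89% and 7.71%) between shoulders near 1500 bp (17.0% and 33.4%), whereas the weakest quintile has its maximum at the summit (30.04% and 51.4%).

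The low at the summit was present at every width. The strongest quintile was split into tertiles by width. Its narrowest tertile (391 to 1550 bp) had H3K4me1 over 2.14% of summits and over 12.3% of positions at 1000 bp, the middle tertile over 3.29% and 14.2%, and the widest tertile (2289 to 12023 bp) over 9.26% and 19.8%. In each width tertile of the weakest quintile the summit was the more often covered, with 25.7% against 16.1% in the narrowest and 34.6% against 27.6% in the widest. When H3K4me1 was held to a q of 0.05 or less, an alternative chosen after seeing the data, the strongest quintile had 3.40% at the summit and 7.11% at 1000 bp.

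Other libraries were read around the same control summits. With the H3K4me1 list of the overexpression cells, the share at the summit was 51.4% in the weakest quintile and 7.71% in the strongest, and the strongest quintile had 33.4% at 1500 bp. That list is a second H3K4me1 library, from a different condition, and covers 3.49% of the base pairs. The overexpression H3K27ac summits with that list, which share no library with the control, gave 42.9% in the weakest and 6.54% in the strongest quintile, and 33.2% at 1500 bp in the strongest. The low was not seen in the H2A.Z libraries. H2A.Zac covered 42.7% of the summits in the weakest and 95.3% in the strongest quintile, and in the strongest 39.0% of positions at 1000 bp. H2A.Z covered 26.1% and 66.0% of the summits and 21.0% at 1000 bp in the strongest quintile. In reverse, H3K27ac covered 18.3% of the q-limited H3K4me1 summits in the weakest H3K4me1 quintile and 49.5% in the strongest, with 14.7% and 32.1% at 1000 bp, so H3K27ac was highest at the H3K4me1 summit in both.

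H3K4me1 lay on both sides of some uncovered H3K27ac summits, less often than on a single side or on neither. Of the q-limited H3K27ac summits, 19.6% were covered by H3K4me1, 20.8% were uncovered with an H3K4me1 region within 2000 bp on both sides, 27.6% had one on a single side and 32.0% had none. In the strongest quintile these were 4.89%, 18.3% (17.3 to 19.4%), 35.7% and 41.1%. The space between the nearest edges of the H3K4me1 regions on either side had a median of 1088 bp in the weakest quintile and 1913 bp in the strongest. Among flanking regions as whole regions, 25.5% (24.8 to 26.2%) of the H3K27ac ones had H3K4me1 on both sides, against 9.10% (8.76 to 9.45%) of the H3K4me1 ones with H3K27ac on both sides. Single-sided H3K27ac regions had their neighbour towards lower coordinates in 5825 cases and towards higher ones in 5842. The median gap of flanking regions was 525 bp for H3K27ac and 644 bp for H3K4me1.

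The classes differed in the other control libraries, which had no part in their definition. H2A.Z regions overlapped 46.9% (46.04 to 47.9%) of the shared, 69.5% (68.5 to 70.5%) of the flanking and 74.3% (73.3 to 75.3%) of the separate q-limited H3K27ac regions. H2A.Zac regions overlapped 72.6%, 83.7% and 86.1%, and FLAG regions 13.6% (12.9 to 14.2%), 32.3% (31.3 to 33.3%) and 29.7% (28.7 to 30.7%). Above this limit on q, H3K27ac regions away from H3K4me1 thus carried H2A.Z and FLAG regions more often than shared ones. They were narrower than the shared regions but had higher summits, with a median −log10 q of 8.91 when flanking and 8.55 when separate against 6.02 when shared. Most deposited H3K27ac regions had a q above 0.05. Over all deposited regions, the whole H2A.Z and H2A.Zac lists overlapped shared regions more often than separate ones. H2A.Z overlapped 36.6% of the shared, 45.5% of the flanking and 30.7% of the separate regions, and H2A.Zac 56.0%, 55.4% and 31.6%. With the H2A.Z list held to a q of 0.05 or less (26099 of 182213 regions), its percentages were 15.7%, 28.0% and 16.3%. Shared then no longer exceeded separate. The H2A.Zac list held likewise gave 44.6%, 49.2% and 28.2%. Over all deposited regions the whole FLAG list was lowest on shared regions too, at 11.4%, 22.4% and 15.6%. The q-limited regions were also divided into 15 groups of like strength and width, by 5 quintiles of strength and 3 tertiles of width. The percentage was higher on separate than on shared H3K27ac regions in 15 groups for H2A.Z, in 13 for H2A.Zac and in 14 for FLAG, which describes these libraries and is no test. H2A.Zac came to 51.05% of the shared and 48.4% of the separate regions in the weakest quintile, and to 97.9% and 99.2% in the strongest. Both H2A.Z and H2A.Zac were present on 45.1% of shared and 72.6% of separate q-limited regions, and neither on 25.6% and 12.2%. Over all deposited regions both were present on 33.0% and 24.3%, and neither on 40.4% and 62.0%. The overexpression libraries gave the same order at q-limited regions, with H2A.Z on 27.7%, 57.5% and 62.9% and H2A.Zac on 52.8%, 75.2% and 82.1% of the shared, flanking and separate regions. Over all deposited regions that order was not kept, with H2A.Z on 19.4%, 34.6% and 21.3% and H2A.Zac on 37.6%, 46.4% and 28.4%.

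H3K4me1 regions showed another pattern. H2A.Zac overlapped 57.8% (56.7 to 58.8%) of the shared, 26.8% of the flanking and 26.6% (25.6 to 27.7%) of the separate q-limited H3K4me1 regions. H2A.Z overlapped 31.5%, 20.9% and 26.6%. In 15 groups of like strength and width, H2A.Z was higher on separate than on shared regions in 8 and lower in 7. H2A.Zac was lower on separate regions in all 15. FLAG overlapped 10.2% (9.55 to 10.8%), 11.8% and 15.7% (14.9 to 16.6%), and was higher on separate than on shared regions in 15 of 15 groups of like strength and width. Over all deposited H3K4me1 regions FLAG overlapped 8.36%, 9.14% and 12.3%. H2A.Zac was again highest on the shared regions there, at 50.8%, 18.8% and 13.1%.

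**Figure D4:**
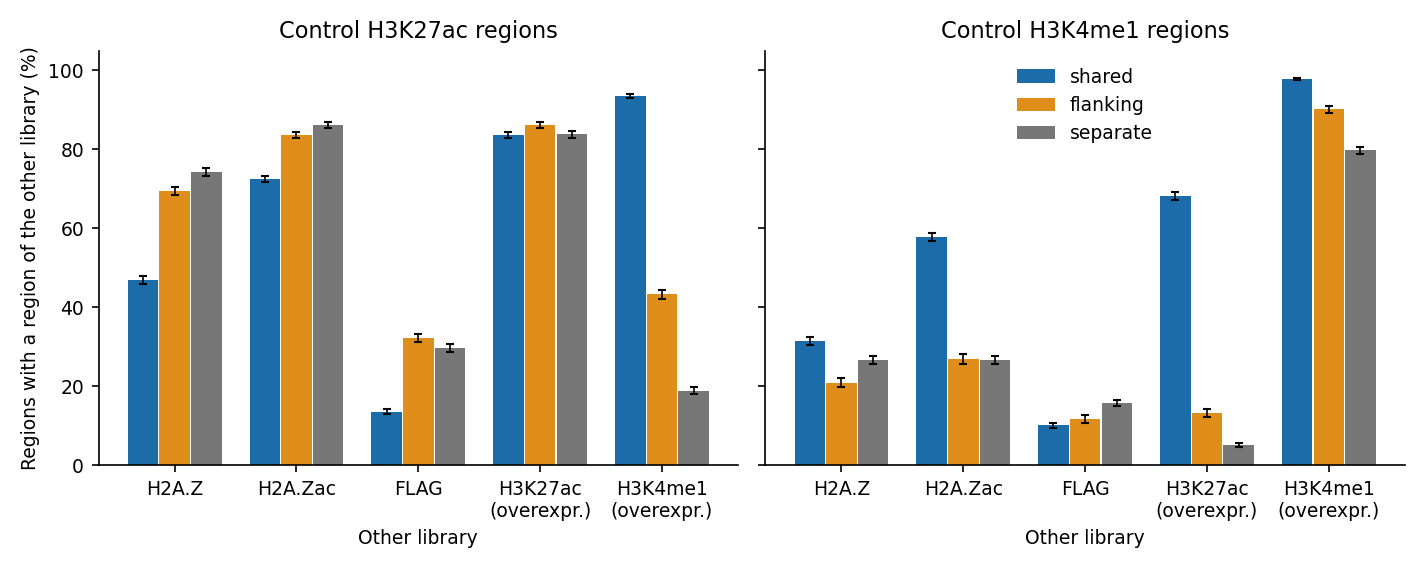
Percentage of q-limited control H3K27ac regions and control H3K4me1 regions that overlapped a region of each other library (x axis), by class; bars start at 0 and error bars are Wilson 95% intervals for counting error. H2A.Z and FLAG are lower on shared H3K27ac regions (46.9% and 13.6%) than on separate ones (74.3% and 29.7%), and the overexpression H3K4me1 list overlaps 93.5% of shared and 18.9% of separate H3K27ac regions.

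The classes carried over in part to the overexpression libraries, which are another condition and not replicates. H3K27ac was found again at 83.6% of shared, 86.2% of flanking and 83.8% of separate q-limited regions. Over all deposited regions it was found again at 59.0% of shared and 53.8% of flanking but at 27.9% of separate ones. The overexpression H3K4me1 list overlapped 93.5% of the shared, 43.3% of the flanking and 18.9% (18.0 to 19.7%) of the separate H3K27ac regions, and the order was the same in each of the 5 strength quintiles. For q-limited H3K4me1 regions the overexpression H3K27ac list overlapped 68.2%, 13.1% and 5.17%. Of the shared H3K27ac regions found again, 91.2% were shared in the overexpression lists too. Of the separate ones found again, 33.0% (31.8 to 34.1%) were separate there, 47.6% were flanking and 19.4% shared. A longer reach of the overexpression H3K4me1 list, which covers 3.49% of the base pairs against 1.79%, moves in the same direction, and its part in these changes was not tested. Of the q-limited separate H3K4me1 regions, 79.8% were found again, and 80.6% of those were separate in the overexpression lists. Of all q-limited regions of a class, found again or not, 64.4% of the separate and 75.7% of the shared H3K4me1 regions kept their class, against 27.6% and 76.3% for H3K27ac. Computed within the overexpression lists, 31.9% of the deposited H3K27ac regions were shared, 20.6% flanking and 47.5% separate. Among q-limited regions there, the H3K27ac shares were 52.2%, 32.0% and 15.9%, against 42.4%, 29.4% and 28.2% in the control. Shared H3K4me1 regions made up 23.1% of the q-limited ones there (19760 of 85651), against 42.6% in the control (8566 of 20108). The q-limited H3K4me1 list was thus much longer with overexpression, and the shared percentage was lower although the shared number was higher.

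Chromosome X stood apart from the autosomes for H3K27ac. There 15.7% (13.8 to 17.8%) of the 1281 deposited H3K27ac regions were shared and 66.9% separate, whereas the shared percentage on autosomes ran from 26.6% on chromosome 4 to 40.2% (37.7 to 42.7%) on chromosome 22. Among the 614 q-limited regions on X, 17.8% (14.9 to 21.0%) were shared and 61.2% separate. H3K4me1 covered 0.350% of X and H3K27ac 0.575%, each the lowest of the 23 chromosomes, as was the coverage by H2A.Z, H2A.Zac and FLAG. X was also lowest in the overexpression lists, with 22.1% (20.0 to 24.3%) of the H3K27ac regions shared and 0.835% of base pairs under H3K4me1. From the H3K4me1 side X did not stand apart, since 16.3% of its deposited and 43.1% of its 153 q-limited regions were shared. By chromosome band, 43.0% of the q-limited H3K27ac regions in unstained bands were shared and 34.9% (32.9 to 36.9%) in the darkest bands, which held 4.30 regions per Mb against 12.2.

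**Figure D5:**
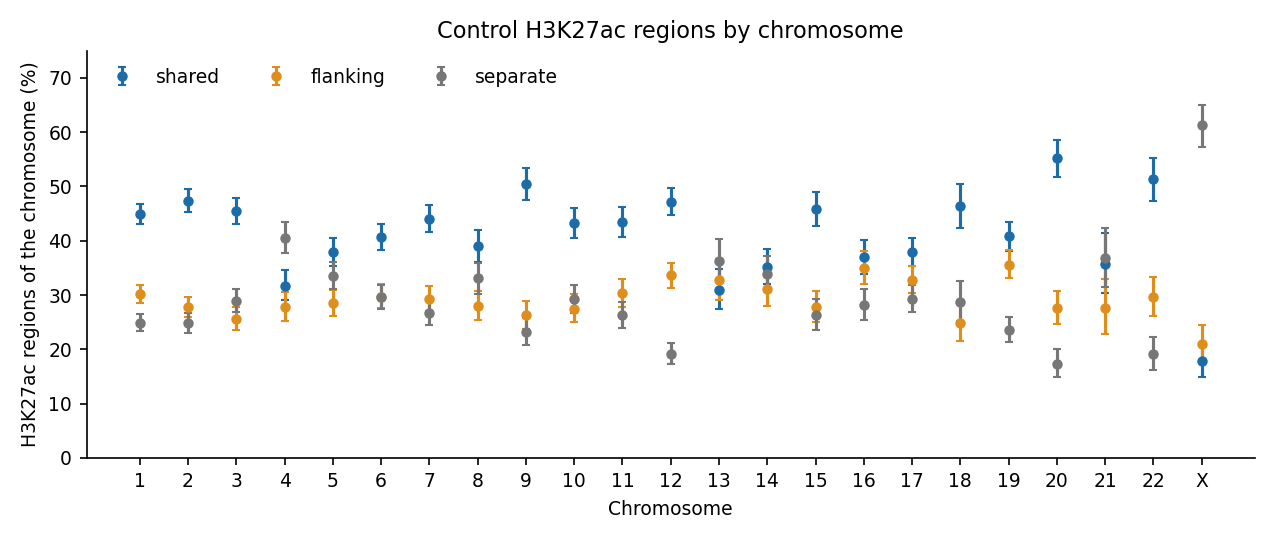
Percentage of q-limited control H3K27ac regions on each chromosome (x axis) that were shared, flanking or separate; bars are Wilson 95% intervals for counting error. X has the lowest shared percentage (17.8%) and the highest separate percentage (61.2%) of the 23 chromosomes.

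The strongest regions of each class show the arrangement place by place, with the authors' fold and −log10 q. The strongest shared H3K27ac region lay at 11q13.2 (chromosome 11, 67055397 to 67057940, hg19), with a fold of 25.2 and a −log10 q of 229. Its summit was not covered, and H3K4me1 regions ended 347 bp to one side (fold 2.76) and began 1182 bp to the other (fold 3.85). At 22q12.1 (chromosome 22, 29194205 to 29198498) a 4294 bp H3K27ac region with a fold of 41.6 overlapped an H3K4me1 region of fold 4.42 whose summit lay 1629 bp from its own. The shared region at 22q12.2 (29662389 to 29666455, fold 42.3) and the one at 2q31.2 (chromosome 2, 178126092 to 178132047, fold 36.8) had summit distances of 1547 and 2779 bp. Their H3K4me1 partners were weak, with a −log10 q of 0.986 and 0.784, so a q above 0.05. In all 4 shared regions the summits of the marks lay further apart than the median of all pairs, 353 bp. Pairs of the strongest H3K27ac quintile had a median of 883 bp. At 11q13.2 the summit of the H3K4me1 region of fold 2.76 lay nearer than that, at 785 bp.

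Strong flanking H3K27ac regions had H3K4me1 close to their edges. At 3q22.2 (chromosome 3, 134091441 to 134094209, fold 36.5) H3K4me1 lay 401 and 116 bp from the edges. At 19q13.32 (chromosome 19, 47612708 to 47618231, fold 33.03) a 3823 bp H3K4me1 region of fold 5.75 began 501 bp away. The region at Xq23 (chromosome X, 115003917 to 115005370, fold 17.7) had H3K4me1 970 bp to one side, and none for 1841586 bp on the other. At 20q11.22 (chromosome 20, 34328852 to 34332066, fold 32.2) the gap was 280 bp, to an H3K4me1 region with a −log10 q of 0.945, so a q above 0.05.

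The strongest separate H3K27ac region, at 14q12 (chromosome 14, 31675120 to 31678196), had a fold of 31.0 and 255 reads at its summit. The nearest H3K4me1 region lay 5369 bp away. It lies, like 11q13.2, where the local background of the peak caller was high, at 3.81 and 4.84 times the genome average against a median of 1.21 over the H3K27ac list. At the flanking region of Xq23 the local background was 7.26 times the genome average. Separate regions at 1p36.13 (chromosome 1, 17230349 to 17231833, fold 33.6), 20q13.2 (chromosome 20, 52824179 to 52825742, fold 31.4) and 20q13.11 (42085693 to 42087628, fold 30.8) had H3K4me1 no nearer than 6121, 11119 and 4071 bp. All 4 overlapped H2A.Z and H2A.Zac, with H2A.Zac folds of 8.40 to 28.5, and 3 of the 4 overlapped FLAG. Over the strongest q-limited quintile, H2A.Zac overlapped 97.9% of shared and 99.2% of separate regions, H2A.Z 79.3% and 91.5%, and FLAG 38.6% and 42.6%. In the overexpression lists all 4 had H3K27ac, with folds of 14.1 to 22.2, and 3 had H3K4me1. Over the same quintile, overexpression H3K27ac overlapped 100% of both classes, and overexpression H3K4me1 89.0% of shared and 21.1% of separate regions.

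Strong H3K27ac summits between H3K4me1 regions were seen at 7p22.3 and 9q34.11. At 7p22.3 (chromosome 7, 2593812 to 2595885, fold 40.9) the H3K4me1 regions had folds of 3.77 and 3.35 and lay 1000 and 554 bp from the summit. At 9q34.11 (chromosome 9, 132243779 to 132246735, fold 42.3) they had folds of 4.78 and 4.08 and lay 434 and 1553 bp away. The next in rank, at 20q13.12 (chromosome 20, 44562568 to 44564539, fold 30.1), had weaker neighbours, with folds of 2.03 and 2.54. Their −log10 q was 0 and 0.397, so both had a q above 0.05.

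On the H3K4me1 side, the strongest shared region lay at 20q13.33 (chromosome 20, 60928073 to 60930660), with a fold of 11.7, inside a 4752 bp H3K27ac region of fold 9.14. At 19p13.11 (chromosome 19, 19208180 to 19209537, fold 9.56) and 11q13.2 (chromosome 11, 67122304 to 67124416, fold 6.35) the H3K27ac partners were 5457 and 4406 bp wide, with folds of 17.9 and 12.4. The strongest separate H3K4me1 region, at 22q11.21 (chromosome 22, 21789886 to 21791213), had a fold of 8.94 and no H3K27ac within 10591 bp. At 20p11.22 (chromosome 20, 21486248 to 21487110, fold 8.51) H2A.Z, H2A.Zac and FLAG regions were present, with folds of 4.57, 3.54 and 6.70. At 1q32.1 (chromosome 1, 202015360 to 202018329, fold 7.55) the nearest H3K27ac region lay 2140 bp away, just outside the limit for flanking. All 4 of these separate regions, with the one at 11q13.2 (66808590 to 66810156), had H3K4me1 in the overexpression list, and 1 had H3K27ac there. Over separate regions of the strongest q-limited H3K4me1 quintile, these lists overlapped 94.8% and 8.55%. The local background at 11q13.2 was 4.44 times the genome average for the shared region and 4.59 for the separate one.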

How the data were processed

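Peaks were compared between the control H3K27ac and H3K4me1 libraries. The other control lists and the histone lists of the overexpression cells were read at those regions. Input peaks of both conditions were used to leave regions out. Per the submitters' processing notes, FastQC, Trimmomatic, BWA and MACS2 were used, and the peak names show 1 list per library. The control used in peak calling and its limits are not given in the sources that were used. The deposited fold is a ratio of summit to local background with 1 added to both, and p and q were deposited on the −log10 scale, for the summit. The authors' deposited score was not used for any result, and its summit offset counts bases from the start of the peak. The smallest −log10 p of each list was near 1.30, so the limit of the lists was a p of 0.05. The notes name 2 builds. All peaks lay within hg19 lengths on 23 of 23 chromosomes, which does not by itself tell the builds apart. Coordinates were taken as hg19 and are given 1-based. No gene annotation of that build was used here, so location relative to gene starts was not run and no sequence is shown.

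Reads at summits and depth were recovered from fold and p under the Poisson model of the peak caller (tolerance 0.002 on −log10 p), and 99.99% of H3K27ac and 100% of H3K4me1 peaks gave whole reads. Overlap, class assignment and recovery were tested on simulated data. Strength quintiles rank regions by deposited −log10 q within a list, and in the weakest quintiles of H3K4me1 ties at a −log10 q of 0 were split by order. Bands came from circlize 0.4.16, and Python 3.11.15, numpy 2.4.6, pandas 2.3.3 and matplotlib 3.10.9 were used. Named regions are the 4 of highest −log10 q per mark and class with a q of 0.05 or less, off input peaks and 1 per band, and the 4 strongest H3K27ac summits between H3K4me1 regions; some of them are described. The alternatives were limits on q, overlap, flank distance and list length, and leaving out chromosomes 11 and 14 or regions on input peaks. Members and lists were chosen with earlier results of these data known.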

Additional observations from a re-analysis of the deposited data

How the results depend on the processing

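Of 59 alternative values, 22 moved by less than counting error and 37 by more. Some of the 22 could not move, so their number does not measure stability. By definition the shared percentage does not depend on the flank distance, nor the separate percentage on the overlap required. With a q of 0.05 or less in both lists, the shared percentage was 20.2% for H3K27ac and 30.5% for H3K4me1, with the limit on the list counted only 42.4% and 42.6%, with an overlap of 50% of the shorter region 25.3% and 14.3%, and in the strongest 20000 regions of each list 20.02% and 23.8%. The ratio of shared to separate median width was 1.80 for H3K27ac and 1.70 for H3K4me1. It became 1.32 and 1.58 with the limit in both lists, and 1.38 and 1.57 in the strongest 20000. The median summit distance became 589 bp and 724 bp under the same settings. The H3K4me1 share at the strongest H3K27ac summits, relative to that at 1000 bp, was 0.317, and 0.478 with H3K4me1 at a q of 0.05 or less, an alternative chosen after seeing the data. These limits leave lists that are both smaller and stronger, and the cause of the changes was not tested. A flank of 1000 or 5000 bp gave 17.9% or 34.7% flanking H3K27ac regions. Without chromosomes 11 and 14 the shared percentages were 32.03% and 18.5%, and without regions on input peaks 32.1% and 18.5%. No paired analysis was possible because each antibody had 1 library per condition. The weak H3K4me1 list limits every statement on its absence, and counting intervals do not cover variation between cultures.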
